A study of Mus musculus with 12 samples.

Results

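The mouse microRNAs (miRNAs) described here, mmu-miR-196a, mmu-miR-196b, mmu-miR-10a, mmu-miR-10b and mmu-miR-615-3p, are made from hairpins that lie among the Hox genes. They were chosen by name, as the 5 of the 611 mouse miRNAs on the array that carry these names, and all 5 were bright enough to be tested. The cells were fibroblasts from mouse embryos (MEFs) on a C57BL/6 background. They were wild type (labelled XBP1WT) or lacked XBP1 (labelled XBP1KO, here called knockout). Both genotypes were left untreated or were given tunicamycin at 2 ug/mL for 12 h or for 24 h. Each of the 6 groups had 2 arrays, from experiments that the design text calls independent. The labels do not say how many embryos or cell lines each genotype came from, so genotype and line of origin cannot be told apart. XBP1 drives transcription in the unfolded protein response. Tunicamycin stops the N-glycosylation of new proteins, which then misfold in the endoplasmic reticulum. The question of the study was which miRNA responses at 12 h depend on XBP1. These arrays measure miRNAs and not the Xbp1 transcript, so the genotype labels could not be checked on the targeted gene.

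Hox genes encode transcription factors that set position along the body axis, and cultured fibroblasts keep a Hox pattern that reflects where in the body they came from. The miRNAs of the Hox clusters are transcribed with their neighbours and share much of that regional pattern. miR-196 is known to repress Hox transcripts, above all Hoxb8. In the RefSeq gene table of assembly GRCm38.p6, Mir196b lies between Hoxa9 and Hoxa10. Mir196a-1 lies between Hoxb13 and Hoxb9, and Mir196a-2 between Hoxc10 and Hoxc9, so that miR-196a has 2 hairpins in different clusters. Mir10a lies within the span of Hoxb3, Mir10b within the spans of Hoxd3 and Hoxd4, and Mir615 within that of Hoxc5. Coordinates are not given, because the array files name no genome build.

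The mature sequences are shown because the members of a pair share a seed and are told apart by a single base, which bears on what a hybridisation probe can separate. They are RefSeq's, 5′ to 3′, with the seed (bases 2 to 8) in capitals.
miR-196a: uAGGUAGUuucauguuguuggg
miR-196b: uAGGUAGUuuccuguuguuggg
miR-10a: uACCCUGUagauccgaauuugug
miR-10b: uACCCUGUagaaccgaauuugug
miR-615-3p: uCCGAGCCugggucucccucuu
Counted from the 5′ end, miR-196a and miR-196b differ only by A12C, and miR-10a and miR-10b only by U12A. miR-615-3p shares its seed with none of the other members and is richer in G and C, with 63.6% of its bases against 40.9% to 45.5%. How far the probes of a pair bind the other member was not tested. By group mean, the members of each pair differed in opposite directions between the untreated genotypes. In wild type at 12 h both members of each pair moved in the same direction.

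Signals are given in scaled array units. A scaled signal under 10.0 (log2 3.33) was set to that floor before the test, and "detected" is the scanner software's own call. A miRNA was tested if both arrays of any group detected it. miR-196b met this only in the knockout groups and miR-615-3p only in the 12 h groups, where each was high. Their tests against dimmer groups are therefore not independent of that filter. The arrays differed in brightness. The unscaled signal summed over the mouse miRNAs was 94809 to 185591 on the untreated arrays and 14076 to 78153 on the tunicamycin arrays, and 120 to 222 mouse miRNAs were detected. All untreated arrays lay on 1 slide and all tunicamycin arrays on the other, so the effect of the slide and that of tunicamycin cannot be told apart. Wild type and knockout arrays shared slides and scans. Of 12 fibroblast marker miRNAs, 10 were detected on all arrays, whereas 0 of 7 epithelial and 0 of 6 blood-cell markers were detected on any. Of 5 neural markers 4 were detected on at least 1 array and 1 on all, with summed scaled signals of 41.9 to 129, and 1 of 2 endothelial markers was detected on at least 1 array.

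The 2 knockout arrays at 24 h disagreed with each other. Over the 95 miRNAs detected on all arrays they correlated at r = 0.877, against 0.960 to 0.995 between the arrays of each other group. The second of them correlated better with an untreated knockout array (r = 0.916) and the first with a wild type array at 24 h (r = 0.934). For the miR-10 pair the gap was wide. miR-10b was 4.36 lower on the log2 scale on the second array than on the first, the 7th largest of 256 such gaps, and miR-10a was 2.68 lower, the 19th largest. The second array also had miR-99a at a scaled signal of 63.4, where the other 5 knockout arrays lay between 0.0637 and 11.1 and the wild type arrays between 29.5 and 52.0. For miR-196b, however, it had 171, within the 70.1 to 215 of the other knockout arrays, where no wild type array exceeded 31.9. All tests share 1 estimate of the spread for each miRNA over all groups, so the gap in the miR-10 pair enters the error of miR-10a and miR-10b in every comparison. Whether the second array holds the sample its label names was not tested, and every 24 h value in knockout rests on that label. Results are therefore given with all 12 arrays and, where it matters, without 1 of these arrays. The scaling also sets the zero of each tunicamycin comparison. The median difference of the 256 tested miRNAs at 12 h was -0.09 in wild type and 0.00 in knockout, but 1.23 and 0.89 with normexp background correction, -0.72 and -0.54 with quantile normalization, and -1.36 and -1.53 with no scaling between arrays.

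**Figure D1:**
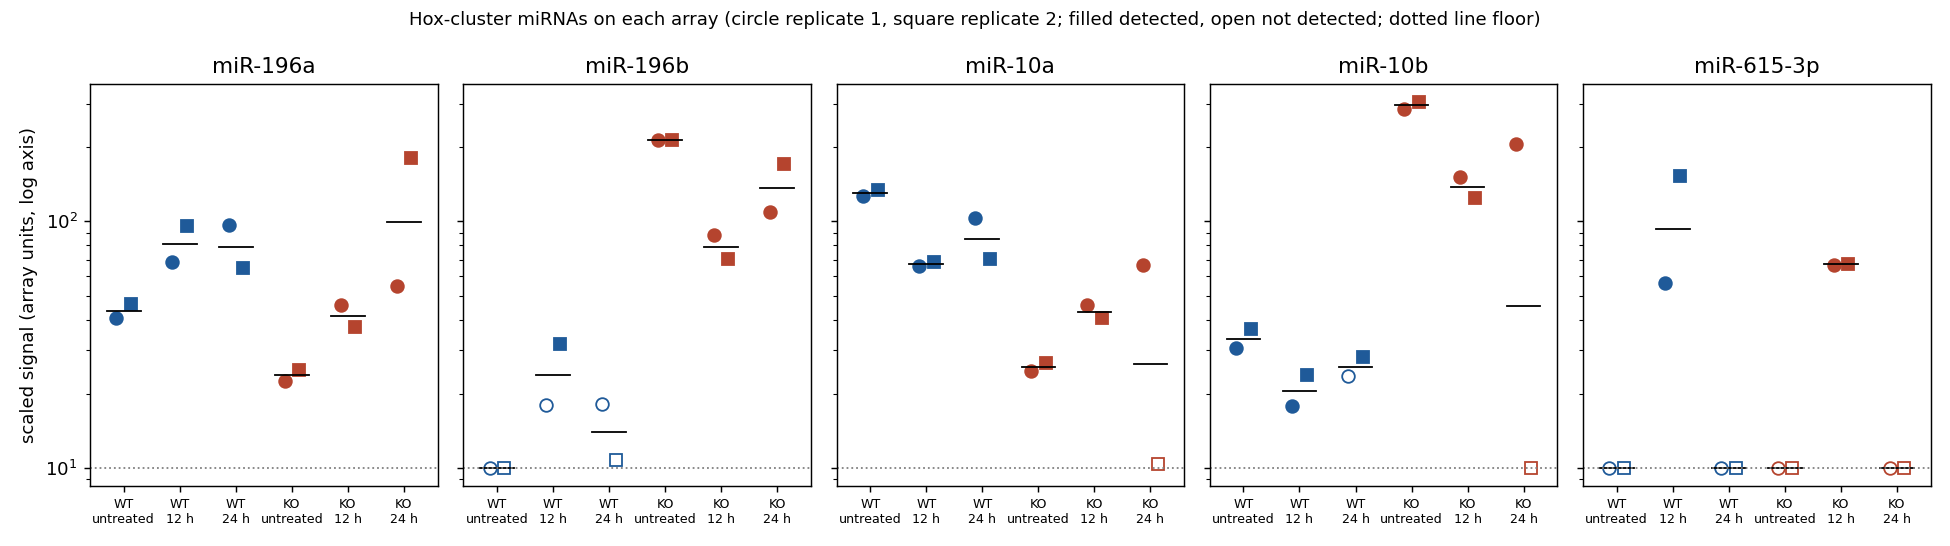
Scaled signal (log axis, array units) of each Hox-cluster miRNA on each of the 12 arrays, by group (WT wild type, KO knockout; 12 h and 24 h of tunicamycin). Circles are replicate 1 and squares replicate 2, filled where the software detected the miRNA, black bars are group means of log2 values, and signals under the floor of 10.0 are drawn on it. All 6 knockout arrays lie above all 6 wild type arrays for miR-196b, and miR-615-3p leaves the floor only on the 4 arrays at 12 h.

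miR-196b, the member from the HoxA cluster, had the largest difference between untreated genotypes of the 5 members. It was detected on all 6 knockout arrays and on 1 of 6 wild type arrays. Untreated wild type arrays had scaled signals of 2.62 and 4.59, both under the floor and not detected, and untreated knockout arrays had 213 and 215. At 12 h the wild type arrays had 18.0 (not detected) and 31.9 (detected), and the knockout arrays 87.8 and 70.1. At 24 h wild type had 18.1 and 10.8, neither detected, and knockout had 110 and 171. The genotypes did not overlap in any condition. How often the 2 arrays of a group separate from those of another among all 256 tested miRNAs was not counted, here or for the other members. On every knockout array all 20 spots for miR-196b were well above background, and on the wild type arrays 0 to 3 of 20 were.

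With the processing used here, untreated knockout cells had at least 42.5-fold more miR-196b than untreated wild type cells. The floored log2 difference was 4.42 (SE 0.39, limma adjusted p = 0.000337), a fold of 21.3, and the call held in every alternative that gave a value. Its size did not hold as well, with 1.86 under normexp (a fold of 3.64), 3.39 with the deposited values (10.5) and 5.79 without scaling (55.3). "At least" sets the brighter group against, on each dim array, the higher of the lowest detected signal and the miRNA's own. It can exceed the floored fold, because the lowest detected signal of an array can lie under the floor. Each such bound holds only for this processing, and under normexp the fold was smaller. The lowest detected signal ran from 0.997 to 22.6 over the 12 arrays, so the bounds are no firm lower limits. At 24 h knockout exceeded wild type by at least 8.77-fold, with a log2 difference of 3.29 (SE 0.39, limma adjusted p = 0.00323), which was lost with normexp background correction (0.33) and without scaling (3.03). At 12 h the log2 difference was 1.71 (SE 0.39, limma adjusted p = 0.0529), which missed the threshold of 0.05. It passed in 8 of 24 alternatives, among them quantile normalization (2.15, limma adjusted p = 0.0140) and leaving out the first (limma adjusted p = 0.0473) or second (0.0132) array of knockout at 24 h, and it turned to -0.18 under normexp. Within the 2 scans the genotype difference was 4.41 and 4.42 untreated, 2.29 and 1.14 at 12 h, and 2.60 and 3.99 at 24 h. With the scan as a block, limma adjusted p was 0.00357 untreated, 0.125 at 12 h and 0.0197 at 24 h. Averaged over the 3 conditions, knockout was higher by 3.14 (SE 0.22, limma adjusted p = 9.68e-05), and by 0.67 under normexp, which was also called.

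The response of miR-196b to 12 h of tunicamycin ran in opposite directions in the 2 genotypes. In wild type it was higher than in untreated cells, although only 1 of the 2 treated arrays detected it. The bound was 4.75-fold, but it averages in the treated array that did not detect miR-196b and is no firm lower limit. The floored log2 difference was 1.25 (SE 0.39, limma adjusted p = 0.0314), a fold of 2.38. Before scaling, the treated wild type arrays had 8.37 and 27.6 and the untreated ones 4.50 and 9.24. Only the second treated array exceeded both. In knockout miR-196b fell by 1.45 (SE 0.39, limma adjusted p = 0.0186), a fold of 2.73. The wild type response minus the knockout response was 2.70 (SE 0.55, limma adjusted p = 0.0337). With the scan as a block this difference of responses no longer passed (limma adjusted p = 0.103). The rise in wild type was lost under quantile normalization (0.28), with a percentile over all miRNAs (0.57) and without scaling (0.60). With the deposited values (0.86), with the brightest probe only (0.84) and when all miRNAs were tested it was lost too. It was also lost when either untreated wild type array, the second wild type array at 12 h (0.91) or either untreated knockout array was left out. The fall in knockout was -0.44 under normexp, where it was not called, and it was also lost without either untreated knockout array or without the second knockout array at 12 h. At 24 h neither genotype differed from untreated past the threshold, with 0.48 in wild type and -0.64 in knockout (SE 0.39 each, limma adjusted p = 0.523 and 0.479).

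Ordered by group mean, miR-196b ran from untreated knockout through knockout at 24 h and at 12 h to wild type at 12 h, at 24 h and untreated. No step between neighbours in that order passed the threshold. The closest was the step between the genotypes at 12 h, given above, and the others had limma adjusted p from 0.148 to 0.523. Only 1 wild type array detected miR-196b, and the untreated wild type mean is the floor itself. The order of the wild type groups thus rests on signals near background. Without scaling, wild type at 24 h differed from untreated by 0.

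miR-196a, which has the same seed as miR-196b, followed another pattern and was detected on all 12 arrays. Its scaled signals in wild type were 40.7 and 46.3 untreated, 68.5 and 95.6 at 12 h, and 96.4 and 64.5 at 24 h. In knockout they were 22.6 and 25.0 untreated, 45.8 and 37.3 at 12 h, and 54.5 and 180 at 24 h. On the scaled signals, untreated knockout arrays were the lowest of all, and in each genotype every treated array lay above both untreated arrays. Before scaling that order did not hold. The wild type arrays then had 69.8 and 93.2 untreated, 31.9 and 82.8 at 12 h, and 25.5 and 43.0 at 24 h.

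The one comparison of miR-196a that passed was knockout at 24 h against untreated knockout (log2 difference 2.06, SE 0.53, limma adjusted p = 0.0449), a fold of 4.17. It rested on arrays that disagreed by 1.73, with 2.72 from the second array alone and 1.28 from the first alone, each called. The call was lost when any of 10 other arrays was left out, and without scaling between arrays the value turned to -0.06. At 12 h the differences from untreated were 0.90 in wild type and 0.80 in knockout (SE 0.53 each, limma adjusted p = 0.212 and 0.272), and without scaling they turned to -0.65 and -1.002. The wild type value also turned to -0.06 with the authors' deposited values, and the knockout value to -0.04 with a percentile over all miRNAs. Without the second knockout array at 24 h these became 0.95 and 0.87 (SE 0.21 each) with limma adjusted p = 0.00877 and 0.0126. Without the first they were 0.77 and 0.51 and not called (limma adjusted p = 0.0597 and 0.184). The responses of the genotypes differed by 0.10 at 12 h (SE 0.75, 95% interval -1.68 to 1.88).

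Knockout minus wild type for miR-196a was -0.87 untreated and -0.97 at 12 h (SE 0.53 each), neither past the threshold with all arrays (limma adjusted p = 0.479 and 0.446), and with the deposited values they turned to 0.83 and 2.08. Leaving out the second knockout array at 24 h gave -0.86 and -0.94, with limma adjusted p = 0.0322 and 0.0308. Leaving out the first gave -0.85 and -1.11, neither called (limma adjusted p = 0.0990 and 0.0561). The software's own total for miR-196a equalled the sum of its probe totals, within 1%, on only 4 of 12 arrays and was up to 10.1 times that sum. The values here come from the spots. With the deposited values, which are that total, the difference in responses at 12 h was -1.24.

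miR-10b and miR-10a come from the HoxD and HoxB clusters. In untreated cells both knockout arrays lay above both wild type arrays for miR-10b and below them for miR-10a. For miR-10b, untreated wild type arrays had scaled signals of 30.5 and 36.6 and untreated knockout arrays 287 and 305. At 12 h wild type had 17.8 and 23.9, and knockout 152 and 125. At 24 h wild type had 23.5 (not detected) and 28.2, and knockout had 206 and, on the second array, -0.752, which is background. Apart from that second array, every knockout array lay above every wild type array. miR-10b was detected on 10 of 12 arrays.

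With all 12 arrays no comparison of miR-10b passed the threshold. Knockout minus wild type was 3.15 untreated (SE 1.19, limma adjusted p = 0.169), 2.74 at 12 h (SE 1.19, limma adjusted p = 0.324), 0.82 at 24 h (SE 1.19, limma adjusted p = 0.922) and 2.24 as the mean of the 3 (SE 0.69, limma adjusted p = 0.0579). Without the second knockout array at 24 h, the untreated and 12 h differences were nearly the same, 3.16 and 2.77, but the SE fell to 0.18 and limma adjusted p to 8.29e-05 and 0.000471. The 24 h difference was then 3.06 (limma adjusted p = 0.000432). Leaving out the first array instead also left the untreated and 12 h differences past the threshold, at 3.16 and 2.60 (limma adjusted p = 8.83e-05 and 0.000499). The 24 h difference then turned to -1.32 (limma adjusted p = 0.00987), so its direction depended on which array was kept. Within scans the difference was 3.23 and 3.06 untreated and 3.10 and 2.39 at 12 h.

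After 12 h of tunicamycin miR-10b differed from untreated by -0.70 in wild type and -1.11 in knockout (SE 1.19 each, limma adjusted p = 0.678 and 0.508). Both treated arrays lay below both untreated arrays in each genotype. Without the second knockout array at 24 h the values were -0.64 and -1.03 (SE 0.18 each), with limma adjusted p = 0.0221 and 0.00331, and they also passed without the first. Under normexp the wild type value turned to 1.07 at 12 h and to 1.09 at 24 h, and with the deposited values it was 1.24 at 12 h. The responses of the genotypes differed by 0.41 at 12 h (SE 1.68, 95% interval -3.56 to 4.38).

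For miR-10a, untreated wild type arrays had scaled signals of 127 and 134 and untreated knockout arrays 24.7 and 26.8. At 12 h wild type had 65.8 and 68.6, and knockout 46.0 and 40.4. At 24 h wild type had 103 and 70.1, and knockout 66.7 and 10.4, the last not detected and the only array of 12 on which miR-10a was missed. On the scaled signals the wild type arrays were the higher in each condition, with no overlap. Before scaling the genotypes overlapped at 12 h (wild type 30.6 and 59.5, knockout 26.4 and 56.6). They also overlapped at 24 h (wild type 27.3 and 46.8, knockout 46.5 and 7.72).

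Averaged over the conditions, miR-10a was lower in knockout by 1.56 on the log2 scale (-1.56, SE 0.43, limma adjusted p = 0.0448), a fold of 2.95. That call was lost with scan as a block (limma adjusted p = 0.0609), under quantile normalization (0.122), with a percentile over all miRNAs (0.193), without scaling (-0.78, limma adjusted p = 0.227), when all miRNAs were tested (0.115) and when any 1 of 10 arrays was left out, and it held without either knockout array at 24 h, at -1.08 without the second and -2.05 without the first. Untreated, knockout minus wild type was -2.34 (SE 0.75, limma adjusted p = 0.102). Without the second knockout array at 24 h it was -2.33 (SE 0.16, limma adjusted p = 0.000146), and without the first it was called too. At 12 h it was -0.64 (SE 0.75, limma adjusted p = 0.943).

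At 12 h of tunicamycin both wild type arrays had less miR-10a than the untreated ones and both knockout arrays had more, but with all 12 arrays neither difference passed. The log2 difference was -0.96 in wild type and 0.74 in knockout (SE 0.75 each, limma adjusted p = 0.337 and 0.476), and the difference of responses was -1.70 (SE 1.06, limma adjusted p = 0.724). The wild type value turned to 0.29 under normexp, and the knockout value to -0.04 under quantile normalization, -0.09 with a percentile over all miRNAs and -1.06 without scaling. Without the second knockout array at 24 h, wild type fell by 0.90 (limma adjusted p = 0.00305) and knockout rose by 0.82 (limma adjusted p = 0.00445). The difference was then -1.72 (SE 0.22, limma adjusted p = 0.00652). Without the first array it was -1.55 (limma adjusted p = 0.0427). At 24 h the knockout response was 0.03 with both arrays, 1.46 with the first alone and -1.41 with the second alone, the last 2 both called.

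**Figure D2:**
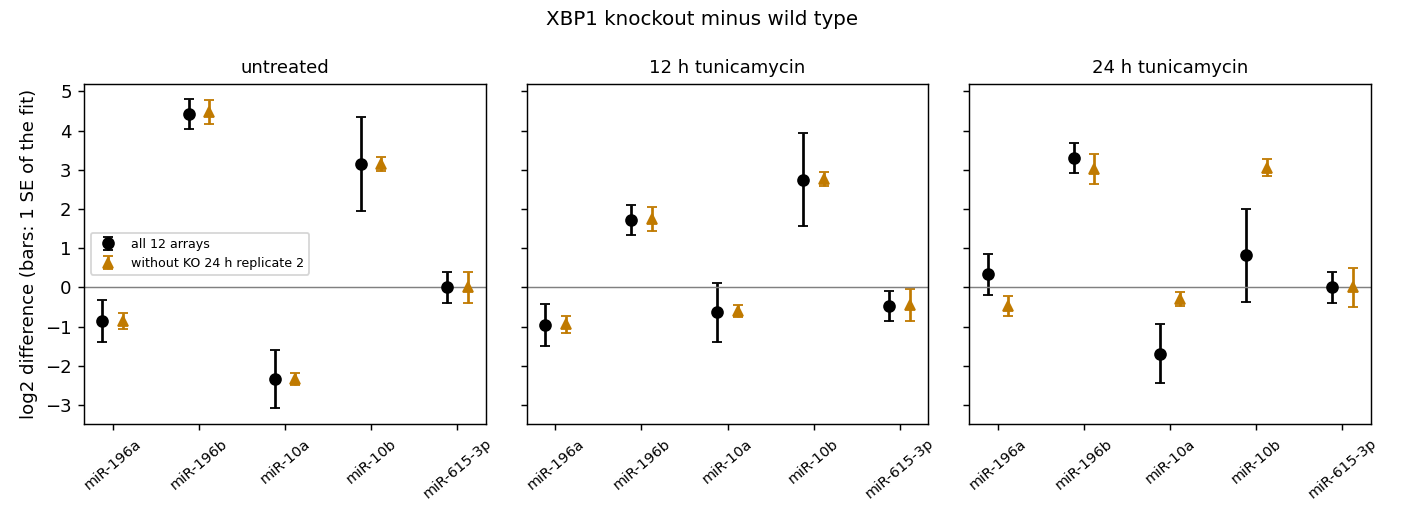
Log2 difference, knockout minus wild type, of each Hox-cluster miRNA in untreated cells and after 12 h and 24 h of tunicamycin. Circles use all 12 arrays, triangles leave out the second knockout array at 24 h, and bars are 1 SE of the limma fit. For miR-10b untreated the value is 3.15 and 3.16 in the fits, while the SE falls from 1.19 to 0.18.

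miR-615-3p, from the HoxC cluster, was seen at 12 h of tunicamycin and at no other time. The wild type arrays at 12 h had scaled signals of 56.5 and 153 and the knockout arrays 66.5 and 67.4, all detected. On the other 8 arrays it was not detected, and its signals of -13.8 to 9.89 were under the floor. The 12 h arrays did not overlap with any others. On each of the 4 arrays at 12 h all 4 probes had a mean above 0, as they did on 2 of the other 8 arrays, the second untreated wild type array and the second knockout array at 24 h. At 12 h 17 to 20 of the 20 spots were significantly positive, and on the other 8 arrays 1 to 8 were.

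In wild type, miR-615-3p at 12 h exceeded its untreated level by at least 20.1-fold. The floored log2 difference was 3.21 (SE 0.39, limma adjusted p = 0.000846), a fold of 9.28. In knockout the bound was 53.3-fold and the floored log2 difference 2.74 (SE 0.39, limma adjusted p = 0.00155), a fold of 6.67. Both calls held in each alternative that gave a value. The differences were 1.72 and 1.86 under normexp and 3.93 and 5.46 with the deposited values, so the bounds hold only for the processing used here. The knockout bound rests on the lowest signal of any miRNA detected on the untreated arrays, which is no detection limit for miR-615-3p. Both bounds exceed the floored folds, so neither is a firm lower limit. The wild type bound is the lower of the 2 although its floored difference is the larger, because the lowest detected signals differed between arrays. From 12 h to 24 h it was at least 6.94-fold lower in wild type (-3.21, limma adjusted p = 0.00243) and at least 7.50-fold lower in knockout (-2.74, limma adjusted p = 0.00352). These later falls were not called under normexp (-0.25 and -0.11) or without scaling (-2.29 and -2.31). The responses of the genotypes differed by 0.48 at 12 h (SE 0.55, 95% interval -0.84 to 1.79). Leaving out the first of the wild type arrays at 12 h gave 1.20, which was called, and leaving out the second gave -0.24.

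Other measures moved at the same time as miR-615-3p. Among 39 viral miRNAs on the array, the brightest had a scaled signal of 671 and 386 on the wild type arrays at 12 h and 675 and 202 on the knockout arrays. It was 13.2 to 78.4 on the untreated arrays and 47.4 to 152 at 24 h, and it was detected on every array. Another viral miRNA, mghv-miR-M1-6, had 40.8 (not detected) and 79.6 in wild type at 12 h and 61.2 and 49.5 in knockout. On the other arrays it had 2.03 to 28.1 and was not detected. Of 4 muscle marker miRNAs, 3 were never detected. The summed scaled signal of all 4 was 32.8 to 104 at 12 h in both genotypes, against 2.17 to 10.6 on the other arrays. Of 5 markers of pluripotent cells 4 were never detected, and the sum of all 5 was 117 to 266 at 12 h, 7.55 to 14.5 untreated and 23.6 to 81.2 at 24 h. The part of these signals in the rise of miR-615-3p was not tested. The software's total for miR-615-3p equalled the sum of its probe totals on 1 of the 4 detected arrays and was up to 45.9 times that sum.

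**Figure D3:**
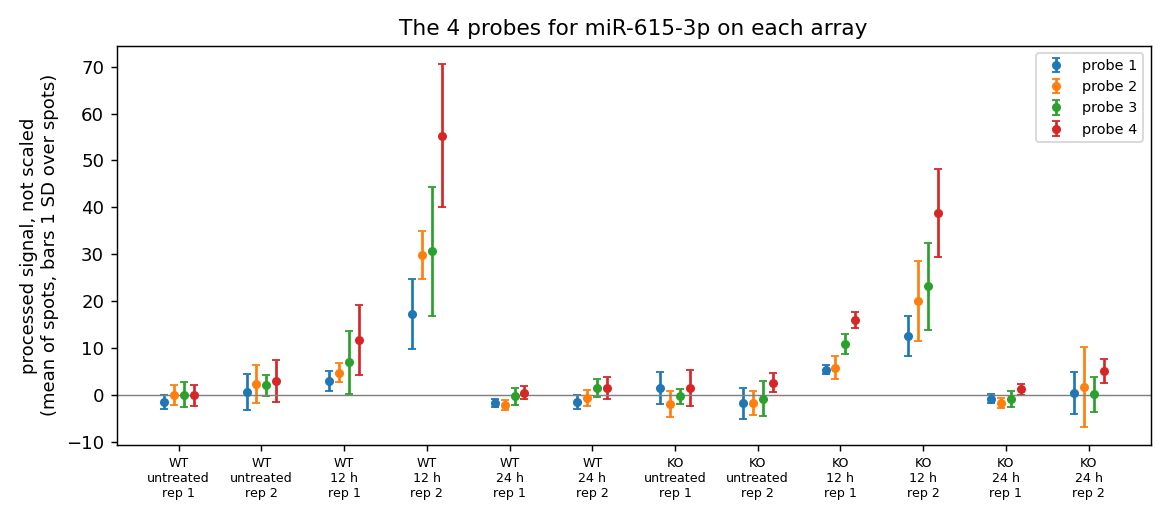
Processed signal, before scaling, of the 4 probes for miR-615-3p on each of the 12 arrays (means over a probe's spots, bars 1 SD over spots). All 4 probes are above 0 on the 4 arrays at 12 h of tunicamycin, and on the other 8 arrays the probe means are nearer to 0, with all 4 above it on 2 of them.

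Over the 5 members, the counts past the threshold were as follows, each beside the share of all 256 tested miRNAs. At 12 h of tunicamycin 2 of 5 were higher and 0 lower in wild type, where 50.8% of all tested passed in either direction, and 1 was higher and 1 lower in knockout, where 49.2% passed. Passing at 12 h was thus common among the 256 tested miRNAs. At 24 h 0 of 5 passed in wild type, where 17.6% of all passed, with none at an unadjusted p under 0.05 in limma, and 1 of 5 passed in knockout, against 14.1%.

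Between the genotypes 1 of 5 passed in untreated cells, against 12.5% of all tested. At 12 h 0 of 5 passed, against 5.08%, with miR-196b at an unadjusted p under 0.05, and 1 of 5 passed at 24 h, against 7.81%. For the mean over conditions 2 of 5 passed, 1 higher and 1 lower, against 23.0%. In the difference of responses 1 of 5 passed at 12 h, against 5.86%, and 0 of 5 at 24 h, against 4.69%, with none at an unadjusted p under 0.05. Between 24 h and 12 h 1 of 5 was lower in each genotype, against 21.9% of all in wild type and 39.5% in knockout. Without the second knockout array at 24 h, 4 of 5 passed between the genotypes in untreated cells, against 25.7% of the 257 miRNAs then tested, and 4 of 5 at 12 h, against 17.1%. In that fit 5 of 5 passed at 12 h of tunicamycin in each genotype, against 58.4% in wild type and 59.1% in knockout. Without the first array instead, 3 of 5 passed in untreated cells, against 18.5% of 259 tested, and 2 of 5 at 12 h, against 12.7%. The 12 h response then passed for 4 of 5 in wild type, against 59.5%, and for 3 of 5 in knockout, against 61.4%. The median member difference was 0.90 at 12 h in wild type and 0.74 in knockout, where the medians of all tested miRNAs were -0.09 and 0.00. These member medians are the single values of miR-196a and of miR-10a, neither past the threshold. Both depend on the scaling. Without scaling miR-196a in wild type was -0.65 and miR-10a in knockout -1.06, and under normexp the medians of all tested miRNAs were 1.23 and 0.89.

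**Figure D4:**
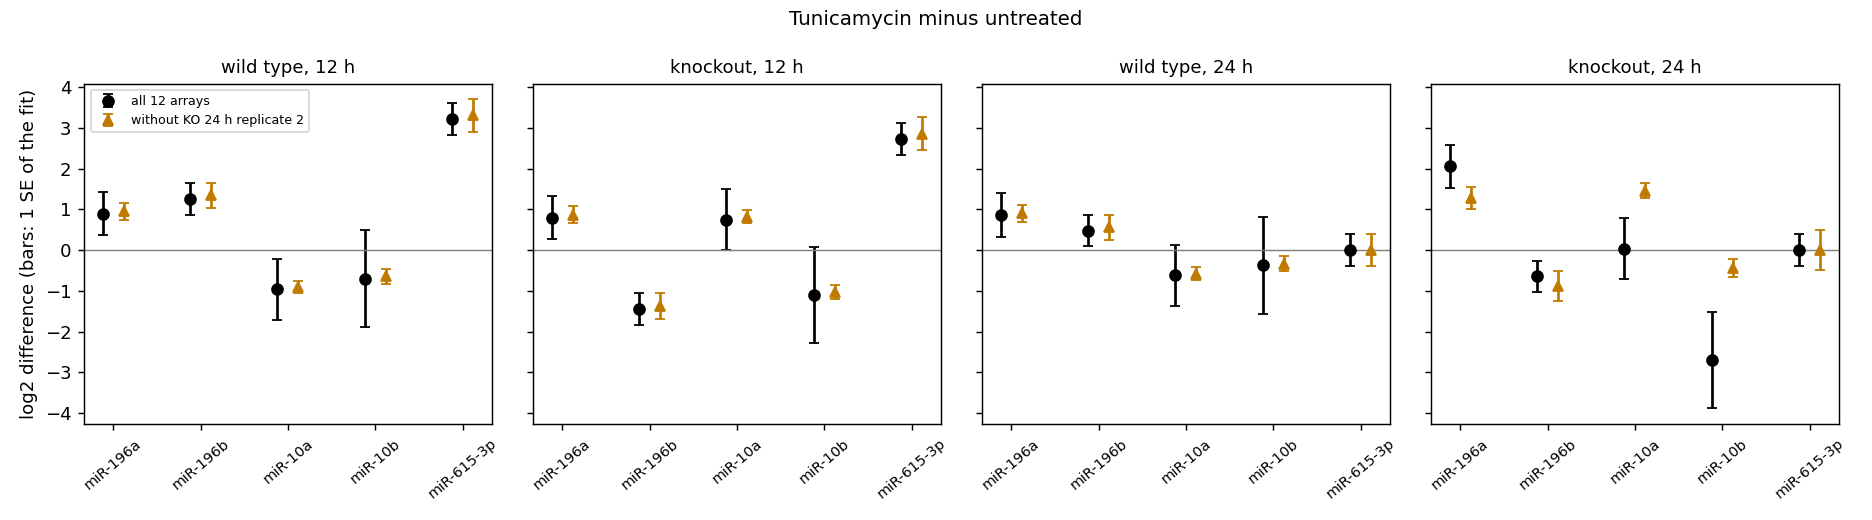
Log2 difference, tunicamycin minus untreated, of each Hox-cluster miRNA at 12 h and 24 h in wild type and knockout. Circles use all 12 arrays, triangles leave out the second knockout array at 24 h, and bars are 1 SE of the limma fit. At 12 h miR-196b is at 1.25 in wild type and -1.45 in knockout, and miR-615-3p at 3.21 and 2.74.

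The opposite arms of the hairpins add little. miR-196a*, miR-10a*, miR-10b* and miR-615-5p were on the array and were detected on 0 of 12 arrays, so none was tested.

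The relatives of miR-10 that lie outside the Hox clusters were all tested: miR-99a, miR-99b and miR-100, whose seeds resemble that of miR-10, and miR-125a-5p and miR-125b-5p, which are made from the same clusters as these. At 12 h, 3 of the 5 were lower and 0 higher in each genotype, where 50.8% and 49.2% of all tested passed in either direction. miR-100 fell by 1.43 in wild type (SE 0.36, limma adjusted p = 0.0142) and by 1.84 in knockout (limma adjusted p = 0.00527), but the values turned to 0.44 and 0.40 under normexp and to 2.48 and 3.05 with the deposited values, none of them called. miR-125b-5p fell by 0.88 and by 1.02 (SE 0.15 each, limma adjusted p = 0.00312 and 0.00179), and miR-99b by 0.76 and by 0.75 (SE 0.21 each, limma adjusted p = 0.0227 and 0.0234). miR-125b-5p was lower under all 5 other scalings or signals tried, whereas miR-99b turned to 0.44 and 0.20 under normexp. miR-99a was lower in knockout over the 3 conditions (-1.54, SE 0.42, limma adjusted p = 0.0422), a call lost under quantile normalization (-1.17), with a percentile over all miRNAs (-1.16), without scaling (-0.63) and with the deposited values (-0.57). Its 63.4 on the second knockout array at 24 h, given above, is the exception. None of the 5 passed between the genotypes in any single condition.

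Across the 12 arrays, the miRNAs whose floored log2 levels ran most like miR-196b were miR-199b* (Pearson r = 0.91), miR-221 (0.85) and miR-30a (0.80), each out of 237 candidates. For miR-10a they were miR-379 (0.86), miR-224 (0.86) and miR-20b (0.85), and for miR-10b they were miR-34a (0.80), miR-9* (0.77) and miR-146a (0.71). miR-196a was followed by miR-194 (0.77), miR-720 (0.73) and miR-423-5p (0.67). The closest to miR-615-3p were miR-34b-3p, miR-698 and let-7g*, at 0.99 or above, each at the floor on 8 arrays. Of the other matches, miR-9* was at the floor on 9 arrays, miR-194 on 7, miR-224 on 4, miR-146a on 2 and miR-379 on 1. Among the members themselves, miR-196b and miR-10a ran against each other (r = -0.84), as did miR-196a and miR-10b (-0.83), and miR-196b and miR-10b ran together (0.61). These correlations describe arrays that share slides, scans and groups, and the second knockout array at 24 h enters all of them.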

How the data were processed

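Per the file headers, the deposited spot intensity values were made with Agilent Feature Extraction 10.7.1.1 on 1-colour Cy3 arrays. They are background-subtracted and not normalized between arrays. The log2 values the authors deposited are those of the total signal per miRNA that this software writes (largest difference 1.15e-06). The authors' later steps are not given in the sources used here.

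Spots of a probe were averaged and probe means summed per miRNA, without control or outlier spots. Each array was scaled to its 75th percentile, taken over 95 mouse miRNAs that all 12 arrays detected, and signals were floored at the 5th percentile of detected ones. miRNAs detected on both arrays of a group were tested (256). limma 3.58.1 in R 4.3.3 fitted 1 mean per group with an intensity trend (6 residual degrees of freedom). Benjamini-Hochberg adjustment ran over the 256 within each of 12 comparisons, with 0.05 as the threshold. The script was tested on simulated data. Plots used matplotlib 3.10.9. Floored values have no spread, so SEs near the floor are too small. Replicates measure only the spread between these arrays, and their number limits the precision.

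Named miRNAs are the 5 members, the other arms of their hairpins, the miR-10 relatives and the 3 miRNAs most correlated with each member. Members and lists were chosen with earlier results of these data known. Alternatives were normexp (offset 50, on median spot and background signals, because the mean signal was not used here), other scalings, the deposited values, other floors and filters, the brightest probe, blocks and leaving out arrays. Slide was no block, since each slide holds 1 kind of treatment. Same-numbered arrays of the 2 genotypes share a scan, per the file headers, and their deviations from the group means correlated at 0.87 untreated, 0.42 at 12 h and 0.52 at 24 h, so scan as a block is the paired fit for the genotype comparisons.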

Additional observations from a re-analysis of the deposited data

Results flagged for a closer look

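The 12 h response of miR-196b differed between the genotypes by 2.70 on the log2 scale (wild type minus knockout, SE 0.55, limma adjusted p = 0.0337), by a test of the difference itself. Wild type was at 1.25 and knockout at -1.45. Both untreated wild type arrays were under the floor, so the size in wild type is limited by it. With scan as a block limma adjusted p = 0.103, and over the arrays left out one at a time it ran from 0.00929 to 0.147, with 5 of 12 fits past the threshold. No group had enough arrays to test for an outlying array.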

How the results depend on the processing

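Each of 60 member differences was recomputed under 13 other settings and with each of the 12 arrays left out. The knockout excess of miR-196b in untreated cells and over the 3 conditions, and the 12 h excess of miR-615-3p over untreated in each genotype, kept their direction and their call in all settings that gave a value. "Untreated" below is knockout minus wild type in untreated cells, "mean" the same over the 3 conditions, and "response" the wild type minus the knockout response at 12 h.

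With normexp, miR-10b in wild type turned to 1.0670 at 12 h and 1.0851 at 24 h against untreated. The miR-196b fall in knockout at 12 h was -0.4428 and its 24 h genotype difference 0.3257. Untreated, miR-10a was -1.5314 and miR-10b 1.7719. For miR-10b the 12 h genotype difference was 0.1890, the mean 0.6261 and the response 1.5829. The response of miR-615-3p was -0.1419, and its change from 12 h to 24 h -0.2462 in wild type and -0.1146 in knockout. Without scaling, the 24 h rise of miR-196a in knockout turned to -0.0596. The 12 h rise of miR-196b in wild type was 0.5954 and its 24 h genotype difference 3.0251. miR-10a was -1.5934 untreated and -0.7763 as a mean, and miR-10b 3.8962 and 2.7759. The miR-615-3p changes from 12 h to 24 h were -2.2900 and -2.3117. Quantile normalization gave 0.2824 for miR-196b in wild type at 12 h and -1.4780 for the miR-10a mean, and a percentile over all miRNAs 0.5664 and -1.2259, all 4 no longer called.

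The deposited values gave 0.7527 for miR-196a in knockout at 24 h and -1.2440 for its response, and 0.8620 and 2.4958 for miR-196b in wild type at 12 h and its response. They gave -2.3992 for miR-10a untreated, 0.5552, 1.4107 and 2.5351 for miR-10b between genotypes at 12 h, as a mean and in its response, and -1.5329 and -3.9285 for the miR-615-3p response and its later fall in wild type. With the brightest probe only, the values were 1.7158 for miR-196a in knockout at 24 h, 0.8431 and 2.2067 for miR-196b in wild type at 12 h and its response, and 2.2703 for the miR-10b mean. With values at the floor left out, miR-10b was called at 3.1474 untreated, 2.7403 at 12 h and 2.9634 as a mean. Testing all miRNAs left the values as they were but lost the calls of miR-196a in knockout at 24 h (2.0591), of miR-196b in wild type at 12 h (1.2533) and its response (2.7015), and of the miR-10a mean (-1.5583), since more miRNAs were tested. Keeping only miRNAs detected on all arrays left miR-196a alone among the members. Of 957 other values, 61 became calls and 896 stayed uncalled, 50 of these with the opposite sign.

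The cause of these changes was not tested. Across conditions same-numbered replicates did not pair, since the correlations of their deviations ran from -0.55 to 0.28. With the replicate number as a block, miR-196a in knockout at 24 h (2.0591, limma adjusted p = 0.0631) and the miR-196b response (2.7015, limma adjusted p = 0.0707) lost their calls, and no other member difference changed its call. With scan as a block, which pairs the genotypes within a scan, the miR-196b response (2.7015) and the miR-10a mean (-1.5583) lost theirs, and no other call changed. For tunicamycin against untreated the scans differ, so scan was a random block there, with a correlation of 0.056. Such a small correlation could hardly change those calls, so their holding says little.

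With 1 array left out, miR-196a in knockout at 24 h ran from 1.28 to 2.72. For miR-196b it was 0.91 to 1.72 in wild type at 12 h, -1.73 to -1.28 in knockout at 12 h and 2.36 to 3.17 for the response. For miR-10a the ranges were -2.40 to -2.29 untreated, -2.05 to -1.08 as a mean, -1.79 to -1.55 for the response, -1.41 to 1.46 in knockout at 24 h and -1.87 to 0.64 from 12 h to 24 h in knockout. For miR-10b they were 3.02 to 3.28 untreated, 2.53 to 2.95 at 12 h, -1.32 to 3.06 at 24 h and 1.48 to 2.99 as a mean, and for the miR-615-3p response -0.24 to 1.20. An array left alone in its group is assumed to vary like the other groups. Signal over background limits miR-196b in wild type and miR-615-3p outside 12 h, which were under or near the floor there.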
